A study of Mus musculus with 6 samples.

Results

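Fatty acid synthesis builds long-chain fatty acids from acetyl-CoA in the cytosol. ATP citrate lyase (Acly) makes that acetyl-CoA from citrate and the acetyl-CoA synthetase Acss2 makes it from acetate, acetyl-CoA carboxylase (Acaca) turns it into malonyl-CoA, and fatty acid synthase (Fasn) joins the units with NADPH that malic enzyme (Me1) helps to supply. Stearoyl-CoA desaturase (Scd1) adds a double bond to the product, and Srebf1 encodes the sterol regulatory element binding protein that activates transcription of these enzymes in liver and fat. In lung the pathway is known for feeding surfactant lipid in alveolar type 2 cells, and it is also active in adipocytes.

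These 7 genes were followed in lungs of 6 ovalbumin (OVA) sensitized and challenged C57 mice. Each mouse was hybridised on its own dual-channel array against 1 pool of control C57 lung, with amplified RNA in both channels. The labels give no age, sex, dose, time, dye or scanner, and they do not say how many mice the pool held, so the pool counts as 1 control sample and its own spread is unknown. The 7 genes were chosen by these ratios, since Fasn and Acss2 had similar ones on all arrays, and the ratios are therefore given as a description, without a test. Of the 7, 6 had a value on at least 4 arrays, among 9774 genes with a tested probe. Each was represented by 1 probe. Just inside that limit was Acaca with 4 arrays, and just outside was Acly with 3, at 0.13, 0.09 and 0.003 in mice 1, 2 and 6.

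Values are the deposited log ratios after each array was centred on its median, read as log2. Which channel is the numerator is not settled by the sources, so a positive sign is not assigned to the OVA mice or to the pool. The base is not stated either: a mean ratio of 1.34 for Fasn is a 2.53-fold difference in base 2 and would be 3.82-fold with a natural logarithm. A ratio gives no level, so the genes cannot be ranked by abundance, and the identity of the tissue cannot be checked by the level of its markers. In whole lung, fewer cells of a type and less RNA per cell cannot be told apart. The arrays measured between 10922 and 13132 probes. The array of mouse 3 stood apart from the rest: the SD of its ratios over probes was 0.211, against 0.32 to 0.469 on the other arrays.

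The 250 bases before the annotated starts of Fasn and Acss2 are shown because these were the genes that defined the list. CCAAT boxes, which nuclear factor Y binds, are in capitals (read as CCAAT, or as ATTGG on the other strand). The sequences are RefSeq's, GRCm38.p6.
Fasn, minus strand, chr11:120824548-120824797: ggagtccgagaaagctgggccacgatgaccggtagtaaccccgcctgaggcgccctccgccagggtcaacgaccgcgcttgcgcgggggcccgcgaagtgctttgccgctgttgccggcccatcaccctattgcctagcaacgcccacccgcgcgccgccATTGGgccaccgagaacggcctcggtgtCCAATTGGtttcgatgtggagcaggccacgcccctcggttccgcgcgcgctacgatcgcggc
Acss2, plus strand, chr2:155517793-155518042: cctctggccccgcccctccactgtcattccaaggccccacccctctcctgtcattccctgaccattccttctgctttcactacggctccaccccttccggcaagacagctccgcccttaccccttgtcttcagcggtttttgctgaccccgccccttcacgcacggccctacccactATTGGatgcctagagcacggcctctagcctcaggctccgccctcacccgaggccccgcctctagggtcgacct
The Fasn window held 3 CCAAT matches, which begin 90, 62 and 59 bases before the start. The last pair overlaps, and the E-box match (CANNTG) of this window, CAATTG, lies within it. The Acss2 window held 1 match, beginning 73 bases before the start, beside 4 GC boxes (GGGCGG). Fasn held 0 GC boxes and Acss2 held 0 E-boxes. Neither held the sterol regulatory element searched (TCACNCCAC), which says only that these letters are not in this window. Both strands were searched in 32851 windows of the same length, of which 33.8% held a CCAAT box, 66.2% an E-box, 32.7% a GC box and 1.05% the sterol element. Of the 7 genes, 6 had a window in the table and Scd1 had none. The windows of Acly and Acaca held no CCAAT box, Srebf1 held 1 in 2 of its 3 windows, and Me1 held 1 in 1 of its 2 windows. The Acaca window was 39.2% G and C, where the other windows of these genes ran from 46% to 72%. Whether a window is a promoter used in lung was not tested. None of the windows of the 6 genes held the sterol element. A match is a string of letters and was not tested as a site.

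The synthase and the acetate-activating enzyme had large positive ratios in every mouse. Fasn was at 2.04, 1.27, 1.25, 1.54, 0.77 and 1.17 in mice 1 to 6. Its mean was 1.34 ± 0.42 (SD, n = 6), with mouse 1 highest and mouse 5 lowest, and 18 of 11629 tested probes had a higher mean. Acss2 was at 1.43, 1.22, 1.28, 1.23, 0.72 and 1.04. Its mean was 1.15 ± 0.25 (SD, n = 6), or 2.22-fold, and mouse 1 was again highest and mouse 5 lowest. Of all tested probes 0.447% had a mean at or above 1, and of the 6 listed genes Fasn and Acss2 did. The pair differed by 0.187 in the mean, less than the SD of Fasn, and by 0.026 to 0.601 in single mice. Fasn was above Acss2 in 5 of 6 mice, the exception being mouse 3.

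The desaturase Scd1 split the mice. It was at 1.37, 0.55, 1.27, 1.28, 0.05 and 1.36 in mice 1 to 6, with a mean of 0.98 ± 0.55 (SD, n = 6). Mice 1, 3, 4 and 6 lay between 1.27 and 1.37, mouse 2 lay well below them and mouse 5 was near the pool. Its SD was larger than that of 97% of tested probes, while that of Acss2 was larger than that of 78.2%. The mean of Scd1 was below that of Acss2 by 0.172, which is less than the SD of Scd1.

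Malic enzyme came next. Me1 was at 0.66, 0.46, 0.96, 0.63, 0.11 and 0.25, with a mean of 0.51 ± 0.31 (SD, n = 6), or 1.42-fold. It was positive in 6 of 6 mice, highest in mouse 3 and lowest in mouse 5. It lay 0.47 below Scd1, again within the SD of Scd1. The SD of the difference within mice was 0.436, and Scd1 was above Me1 in 5 of 6 mice.

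The carboxylase and the regulator lay near 0. Acaca, which makes the malonyl-CoA that Fasn consumes, was at 0.39, 0.08, -0.10 and 0.01 in mice 2, 4, 5 and 6, with a mean of 0.09 ± 0.21 (SD, n = 4). Single mice lay on both sides of 0, and the mean without mouse 2 was -0.003. The means of Me1 and Acaca differed by 0.416, but Acaca had no value in mice 1 and 3, where Me1 was highest. In the 4 mice with both values the difference was 0.267, and Me1 was above Acaca in 4 of 4. That difference was below the SD of Me1 over 6 mice (0.306) but above the SD of the difference within mice (0.205). The other neighbours in the order of the 6 genes differed by less than the larger SD of the pair. Srebf1 was at -0.19, 0.15, 0.18, -0.02, 0.14 and 0.16, with a mean of 0.07 ± 0.15 (SD, n = 6). It was positive in 4 mice and negative in 2, one of which was mouse 1, where Fasn and Acss2 were highest. Srebf1 and Acaca did not differ beyond their spread (0.024). Which transcripts of Srebf1 the probe detects is not given in the sources used here, and a transcript ratio does not measure the cleaved, active protein.

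The median mean ratio of the 6 genes was 0.75, against -0.003 over all tested probes, a difference that the choice of the genes had already set. The plot of the ratios by mouse separates the genes that were positive in all mice from those around 0.

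**Figure D1:**
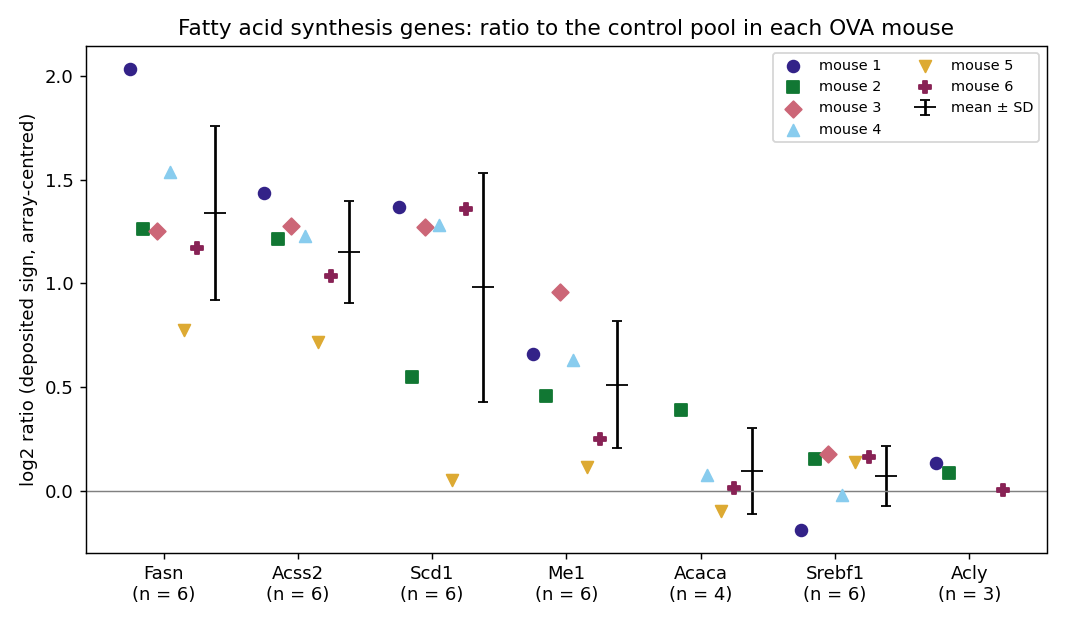
Array-centred log2 ratio (vertical axis, deposited sign) of each fatty acid synthesis gene in mice 1 to 6, drawn as coloured symbols, with the mean ± SD over mice in black for genes with a value on at least 4 arrays. Fasn and Acss2 lie at 0.72 or above in every mouse, Scd1 is near 0 in mouse 5, and Acaca, Srebf1 and Acly lie around 0.

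Mouse 3 was not low for Fasn, Acss2, Scd1 and Me1, although most of its other ratios were small. On its array 13 probes lay at or above 1, and 3 of them were Acss2, Scd1 and Fasn, ranked 4, 6 and 8 of 11439. Me1 ranked 18. The citrate carrier Slc25a1 ranked 3 with 1.33, and the lipid droplet protein Cidea ranked 1 with 1.71. In mouse 1, with 194 probes at or above 1, Fasn ranked 21 and Acss2 ranked 64.

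Among 69 probes whose mean over the other 5 mice was at or above 1, the median ratio of mouse 3 was 0.32 and the median share of the other mice's mean was 24%. A share of at least 80% was reached by 3 of the 69, namely Acss2 with 114%, Fasn with 92.4% and Tmem120b. Fasn and Acss2 had been chosen for similar ratios on all arrays, mouse 3 included, so their shares are not independent of that choice. Scd1 and Me1, with means of 0.92 and 0.42 over the other mice, were not among the 69. In mouse 3 they stood at 138% and 228% of those means, without a median share of like probes to set beside them. Mouse 5 was low for Fasn, Acss2, Scd1 and Me1. There Fasn was at 53.2% and Acss2 at 58% of the mean of the remaining mice, close to the median of 59.1% over 65 such probes, while Me1 was at 19.1% and Scd1 at 4.29%. These shares are descriptions of single arrays. Without mouse 3, the means were 1.36 for Fasn, 1.13 for Acss2, 0.92 for Scd1 and 0.42 for Me1.

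**Figure D2:**
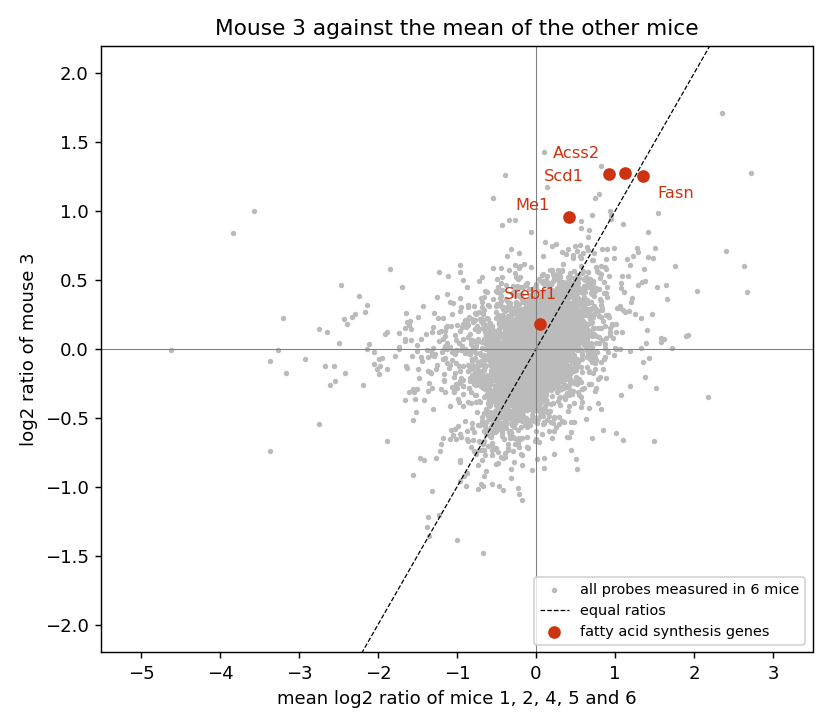
Log2 ratio of mouse 3 (vertical axis) against the mean log2 ratio of the other 5 mice (horizontal axis) for every probe measured in 6 mice, in grey, with fatty acid synthesis genes in red and a dashed line at equal ratios. Most probes with a large mean in the other mice lie closer to 0 in mouse 3, while Fasn and Acss2 lie near the line and Scd1 and Me1 above it. Fasn and Acss2 were chosen for similar ratios on all arrays, mouse 3 included.

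The genes whose ratios were most like those of the pair were sought among 8662 probes measured in all mice, by the root mean square difference over the 6 arrays. All ratios share the arrays and the pool. Acss2 was nearest to Fasn at 0.283, which restates how the list was chosen. It was followed by Tnxb, a matrix glycoprotein, at 0.312, the heart peptide gene Nppb at 0.371, the cytochrome P450 Cyp2b10 at 0.403, pyruvate carboxylase Pcx at 0.404, Sorbs3 at 0.417 and the myosin light chain Myl1 at 0.427. In mouse 3, where Fasn was at 1.25, Nppb was at 0.99 and Pcx at 1.00, while Tnxb, Cyp2b10, Sorbs3 and Myl1 lay between 0.47 and 0.67.

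The nearest to Acss2 was Pcx, which makes oxaloacetate from pyruvate, at a difference of 0.231. After Fasn, at 0.283, came Slc25a1, which exports citrate from mitochondria, at 0.296, and the fatty acid transporter Slc27a1 at 0.308. Ace, Tmem120b and Vegfb came after them, at 0.321, 0.338 and 0.349. Among the listed genes, Scd1 ranked 18, Me1 186 and Srebf1 3059.

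The rest of the pathway was taken as 5 lists of 105 genes, of which 63 could be tested. In limma, with Benjamini-Hochberg adjustment over all probes, 17 were called positive and 5 negative, 34.9% together, where 24.4% of all tested probes were called. The median mean ratio of the 63 was 0.06.

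Genes that supply citrate, acetyl-CoA and NADPH were called on the positive side alone. Of 24 genes 15 could be tested, 8 were positive, 0 were negative at an adjusted p under 0.05, and the median was 0.27, where 12% of all tested probes were called positive and the median was -0.003. There were 5 positive calls without mouse 4, 6 without mouse 2, 3, 5 or 6, and 8 without mouse 1. Pcx was at 1.48, 0.94, 1.00, 1.03, 0.52 and 0.74 in mice 1 to 6, with a mean of 0.95 ± 0.32 (SD, n = 6, limma adjusted p = 0.00383). Slc25a1 was at 1.05, 0.86, 1.33, 1.05, 0.57 and 0.60, with a mean of 0.91 ± 0.29 (n = 6, limma adjusted p = 0.0035). Both were positive in 6 of 6 mice and lowest in mouse 5, as Fasn and Acss2 were, and Slc25a1 was highest in mouse 3.

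Subunits Pdhb and Dlat of the pyruvate dehydrogenase complex, which makes acetyl-CoA in mitochondria, were also positive. Pdhb had a mean of 0.84 ± 0.25 (n = 6, limma adjusted p = 0.00324) and Dlat of 0.51 ± 0.19 (n = 6, limma adjusted p = 0.00552), whereas Pdha1 was at 0.14 without a call. The probes of Pdhb and Slc25a1 carry adjacent numbers. The other positive calls were Pgls of the pentose phosphate pathway at 0.33, malonyl-CoA decarboxylase Mlycd at 0.31, Aacs, which activates acetoacetate, at 0.29, and malate dehydrogenase Mdh1 at 0.27 in 5 mice. Pgd, which makes NADPH in the pentose phosphate pathway, was at 0.08 and citrate synthase Cs at -0.23, both without a call.

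Regulators of the pathway had small ratios on both sides. Of 28 genes 14 could be tested, with 4 positive calls, 2 negative calls and a median of 0.002. Over all tested probes 12% were called positive and 12.3% negative, and the 2 of 14 on the negative side are near that share. The kinase Stk11 was at 0.35 ± 0.19 (n = 6, limma adjusted p = 0.0152), and the carbohydrate-responsive factor Mlxipl was at 0.27 ± 0.17 (n = 6, limma adjusted p = 0.0264). Srebf2, the relative of Srebf1 that mainly drives cholesterol synthesis, was at -0.58, -0.67, -0.11, -0.63, -0.12 and -0.06, with a mean of -0.36 ± 0.29 (n = 6, limma adjusted p = 0.0408). Its larger ratios lay in mice 1, 2 and 4. Nfya, a subunit of the CCAAT-binding factor, was at -0.30 (limma adjusted p = 0.0398), negative in 5 of 6 mice. Without mouse 2 or without mouse 4 this list had 2 calls. The call of Srebf2 was lost without mouse 1, 2, 4 or 5 (adjusted p up to 0.114) and that of Nfya without any mouse but mouse 6 (up to 0.0984). Mlxipl lost it without mouse 1, 2 or 4 (up to 0.0837) and Stk11 without mouse 2 or 4 (up to 0.0537).

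Of 20 genes of elongation and desaturation 11 could be tested, with 0 positive and 2 negative calls in limma (3 at an unadjusted p under 0.05) and a median of 0.01. With 12% of all tested probes called positive and 12.3% negative, counts this small in 11 genes do not set the list apart, and its difference from the supply list was not tested. The negative calls were Hacd4, a dehydratase of fatty acid elongation, at -0.66 ± 0.47 (n = 6, limma adjusted p = 0.0252), and the elongase Elovl7 at -0.20 ± 0.09 (n = 6, limma adjusted p = 0.0159). The probe of Hacd4 lies 24 numbers from that of Lair1, which had a larger negative mean. Hacd4 lost its call without mouse 1, 2, 5 or 6 (adjusted p up to 0.0768) and Elovl7 without mouse 2 or 4 (up to 0.0572). The elongase Elovl6, which acts on the product of Fasn, was at 0.10 (adjusted p = 0.0727). Scd2, the paralog of Scd1, was at 1.40, 0.75, -0.09, 0.24, 0.12 and -0.23 in mice 1 to 6, with a mean of 0.36 ± 0.61 (n = 6, limma adjusted p = 0.233). In mice 3 and 6 Scd2 was below 0 while Scd1 was at 1.27 and 1.36. Elovl6 and Scd2 were chosen after their values were seen.

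Assembly of fatty acids into glycerolipids gave 5 positive calls and 1 negative call among 16 tested genes of 23, with a median of 0.08, where 12% of all tested probes were called positive and 12.3% negative. Lpin1, a phosphatidate phosphatase, was at 1.15, 1.12, -0.21, 0.97, 0.53 and 0.67, with a mean of 0.71 ± 0.51 (n = 6, limma adjusted p = 0.026). Mouse 3 alone was negative, and without it the mean was 0.89, while the call was lost without any other single mouse (adjusted p up to 0.0815). Both acyltransferases that complete triglycerides were positive in 6 of 6 mice, Dgat2 at 0.40 ± 0.15 (n = 6, limma adjusted p = 0.00606) and Dgat1 at 0.39 ± 0.18 (n = 6, limma adjusted p = 0.00942). Agpat2, an acyltransferase of the step before phosphatidate, was at 0.32 ± 0.11 (n = 6, limma adjusted p = 0.00627). Without mouse 2, 5 or 6 this list had 3 calls. The separate fatty acid synthesis of mitochondria had 0 calls among 7 tested genes in limma, 1 of which had an unadjusted p under 0.05, with Acsf3, which makes malonyl-CoA there, at 0.14 and Lipt1 at 0.08 as values.

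**Figure D3:**
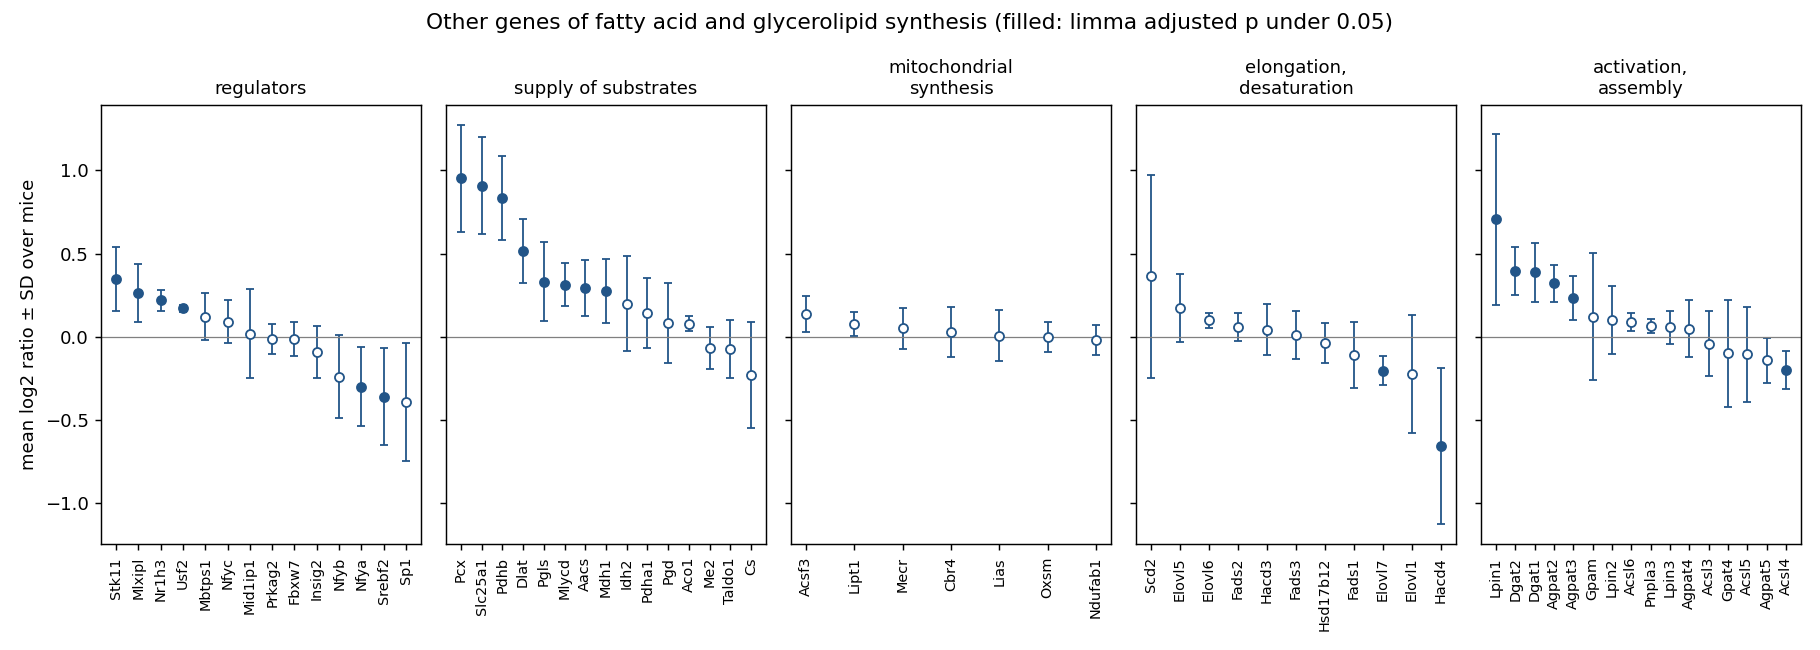
Mean log2 ratio ± SD over mice (vertical axis) of the tested genes of each pathway list, ordered within a list, with filled symbols for limma adjusted p under 0.05. Positive calls are 8 of 15 in the supply list, led by Pcx and Slc25a1, while the mitochondrial list has none and the elongation list has 2 negative calls. Of all tested probes 12% were called positive and 12.3% negative, and differences between lists were not tested.

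Markers of cells that hold these enzymes were read beside the listed genes. Of 22 adipocyte markers 13 could be tested, 6 were called positive and 1 negative, where 12% and 12.3% of all tested probes were, and the median was 0.44. Adipoq, the adipocyte hormone, was at 3.20, 3.49, 0.42, 2.61, 0.94 and 3.14 in mice 1 to 6, and the brown fat protein Ucp1 at 1.28, 1.45, 0.85, 1.43, 1.26 and 1.67. Cidea had a mean of 2.25 and the insulin-responsive glucose transporter Slc2a4 one of 0.80. Cebpa was the negative call, at -0.48. Pparg at 0.23, Fabp4 at 0.19 in 4 mice, Lpl at 0.18, Lep at 0.12 and Pnpla2 at 0.03 had no call. Car3 was at 1.75 without a call, while another of its probes was called at 0.93. The mean over the 12 markers measured in all mice ranged from 0.243 in mouse 3 to 1.15 in mouse 1, while that of the 5 listed genes measured in all mice ranged from 0.359 in mouse 5 to 1.06 in mouse 1. In mouse 3 the adipocyte mean was at its lowest and the mean of the listed genes was 0.989. The adipocyte markers held positive and negative values there, as in every mouse, since Cebpa was negative in 6 of 6. In mouse 3 Cidea was at 1.71, Ucp1 at 0.85 and Slc2a4 at 0.49, while Cebpa was at -0.79, Car3 at -0.35 and Lpl at -0.05. The other tested markers lay between 0.02 (Fabp4) and 0.42 (Adipoq) in mouse 3. The part of fat in the ratios of Fasn, Acss2 and Scd1 was not tested, and because the values are ratios, no marker can be said to be absent.

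Of 16 alveolar type 2 markers 11 could be tested, 1 was called positive and 4 negative, where 12% and 12.3% of all tested probes were, and the median was -0.12. The secreted chemokine Cxcl15 was at -1.36 ± 0.25 (n = 6), the surfactant protein Sftpa1 at -0.61 and Il33 at -0.61 in 5 mice, while Sftpc, the surfactant protein most particular to these cells, was at 0.60. Their mean per mouse lay between -0.47 and 0.03, and their part in the ratios was not tested. Calls fell to 1 without mouse 2 or mouse 4. Sftpc lost its call without any single mouse but mouse 3 (limma adjusted p up to 0.111), where its ratio was -0.14. Sftpa1 lost its call without mouse 2, 4 or 5 (up to 0.0768) and Il33 without mouse 2 or 4 (up to 0.0888).

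Club cell markers had 8 positive and 0 negative calls among 11 tested genes of 14, where 12% and 12.3% of all tested probes were called, and a median of 1.14. Fmo2 at 0.84, Scgb3a2 at 0.21 and Hp at -0.10 had no call. The called genes included Gsta3 at 2.13, Bpifa1 at 1.62, Scgb1a1 at 1.38 and Cyp2f2 at 1.33. Their mean per mouse ran from 0.252 in mouse 3 to 1.77 in mouse 1, and without mouse 2 or mouse 4 there were 4 calls. Macrophage markers had 0 positive and 3 negative calls in limma among 9 tested genes of 12 (4 at an unadjusted p under 0.05) and a median of -0.23, where 12% and 12.3% of all tested probes were called on these sides. The calls were Aif1 at -1.80, C1qa at -1.36 and C1qb at -1.34, and they were lost without any single mouse but mouse 3. Marco at 0.44 and Trem2 at 0.04 lay on the other side without a call. In mouse 3 the macrophage mean was 0.21, against -1.15 to -0.37 in the other mice. The part of either cell type in the ratios of the listed genes was not tested.

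**Figure D4:**
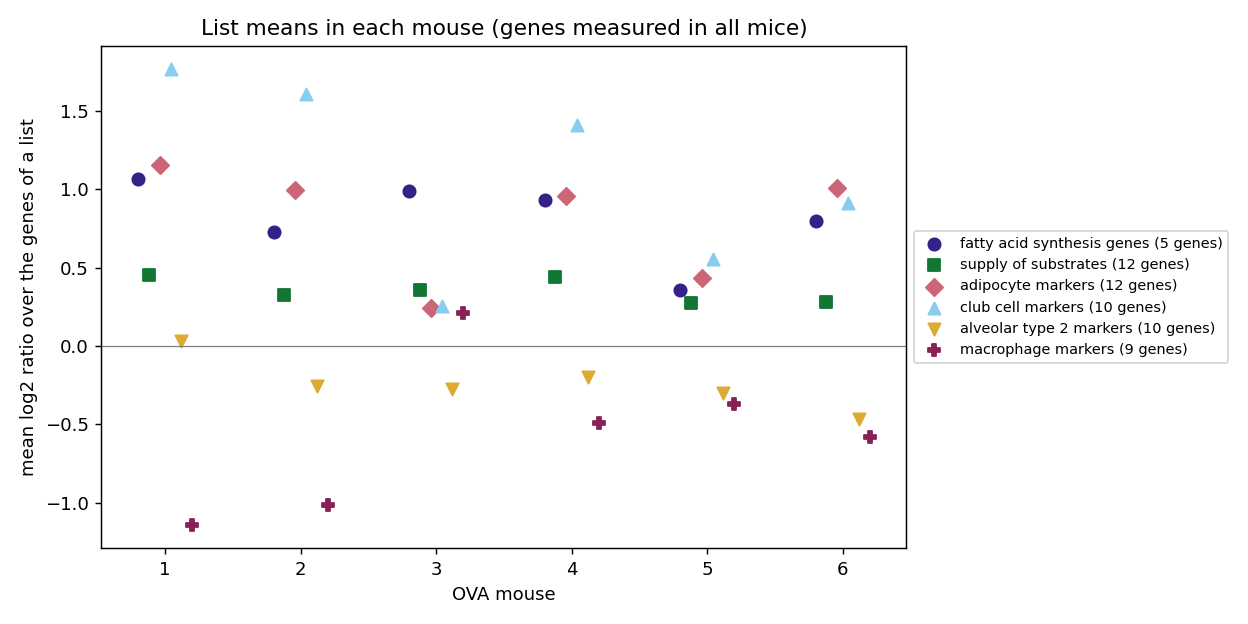
Mean log2 ratio over the genes of a list measured in all mice (vertical axis) for each OVA mouse (horizontal axis). In mouse 3 the fatty acid synthesis genes are at 0.989, while adipocyte markers are at 0.243 and club cell markers at 0.252, and in mouse 5 the fatty acid synthesis genes are at their lowest, 0.359. The adipocyte mean of mouse 3 holds values from -0.79 (Cebpa) to 1.71 (Cidea).

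The position of the probes was checked, since mean ratios of probes whose numbers differ by 6, 18 or 24 were correlated across probes (Pearson r of 0.135, 0.104 and 0.113, against -0.033 to 0.053 at the other 21 distances up to 24). Probes are not independent replicates. The Fasn probe lies 6 numbers from that of Myh6, a heart muscle myosin with a mean of 1.44. Myh6 was at 2.80, 2.56, 0.006, 1.93, 0.03 and 1.30 in mice 1 to 6. Fasn was at 2.04, 1.27, 1.54 and 1.17 in mice 1, 2, 4 and 6, below Myh6 in each. In mice 3 and 5, where Myh6 was near 0, Fasn was at 1.25 and 0.77. The part of this neighbouring probe in the ratio of Fasn was not tested. As Myh6 had the larger mean, Fasn is left out where probes beside a stronger one are omitted. Fasn then has no value under that alternative. No other listed gene lay so near a stronger probe of the same sign with a mean of at least 1. The Scd1 probe lies 18 numbers from that of Myoz2, with a mean of 0.84, and 24 from that of Col9a3, at 0.82. Myoz2 was at 1.555, 0.694, 0.656, 1.323, 0.195 and 0.641 in mice 1 to 6, above Scd1 in mice 1, 2, 4 and 5. S100a16, Alas2 and Kcnj4, also at these distances from Scd1, were at 0.25, -0.08 and -0.16. The part of neighbouring probes in the ratio of Scd1 was not tested.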

How the data were processed

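Lung RNA of 6 OVA mice was measured on dual-channel arrays against 1 control pool. The authors deposited 1 log ratio per spot, read here as log2 from its range. No label states the base, dyes, direction, background correction or normalization. Of 17280 probes, 14722 had 1 gene symbol in the platform annotation, 1 had several and 2557 had none, and 14445 symbols were updated through RefSeq names (GRCm38.p6). Rows that repeat 10 or more times per accession (170) and 4 plant rows were left out. Each array was centred on its median over probes measured in all mice (deposited medians between -0.012 and 0.008).

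Probes with a value on at least 4 arrays (11629) went into a limma fit (3.58.1, R 4.3.3) of the ratio against 0 (intercept alone, eBayes, two-sided, Benjamini-Hochberg at 0.05), after a test of the script on simulated data. The shared pool leaves out the spread between control mice, a dye effect of a gene does not cancel, and the number of arrays limits the precision. Nothing in the labels beyond the mouse number separates the samples. A gene of a list with several probes was read from the probe with values on most arrays, then the lowest number. Genes were named as follows: all 7 listed genes, up to 4 called genes per list with the largest mean (up to 2 values where none was called), and the 6 named probes nearest to Fasn and to Acss2. Further genes given with a value were picked with it in view. The listed genes and the lists were chosen with earlier results of these data known. Alternatives were no centring, scale and quantile normalization, a minimum of 3 or 6 arrays, weighting of arrays, eBayes with its robust option, omission of probes beside a stronger probe, gene means in place of single probes, and leaving out each mouse. Promoter sequences are from RefSeq. Python 3.11.15 and matplotlib 3.10.9 made the figures.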

Additional observations from a re-analysis of the deposited data

How the results depend on the processing

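The mean ratios of the 6 listed genes moved by less than 1 SD under no centring, scale or quantile normalization and without any 1 mouse. Over the 3 other normalizations Fasn ran from 1.33 to 1.34, Acss2 from 1.15 to 1.26, Scd1 from 0.98 to 1.04 and Me1 from 0.51 to 0.57. Without 1 mouse they ran from 1.20 to 1.45, 1.10 to 1.24, 0.90 to 1.17 and 0.42 to 0.59. Srebf1 ran from 0.05 to 0.12 and Acaca from -0.003 to 0.16. The counts of calls depended on single mice. Leaving out 1 mouse gave 1325 to 3036 called probes (2832 with all mice), 11 to 20 of the other pathway genes (22) and 11 to 25 of the marker genes (23). Under the other alternatives these counts were 2588 to 3431, 21 to 23 and 23 to 27. Among values of single named genes and single lists, 489 kept their side of the threshold or their size, 52 lost a call without 1 mouse, 25 counts moved by over 1.5 times and 0 reversed. Fewer mice were fitted in the former, and the cause was not tested otherwise. No paired analysis was possible because all mice form 1 group that shares 1 pool. Signal over background is not known from log ratios, so a value near 0 from a dim spot cannot be told from one of a bright spot. This holds for Acly and Acaca, which lacked values on 3 and 2 arrays.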
